A study of Mus musculus with 8 samples.

Results

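Rab GTPases are small membrane-bound switches that mark the compartments of the secretory and endocytic system, and the family was examined here in B16F10 cells, a mouse melanoma line of C57BL/6 origin. Members were all entries of the deposited gene table whose symbol is Rab followed by a number and at most 1 letter, without Rab27a, Rab32 and Rab38, the Rabs known for building and moving melanosomes. This gave 56 members among 45556 named genes, and 46 of them were among the 13500 genes that passed the filter on low counts. The 4 groups hold 2 libraries each. They are cells with a hairpin against Drg2 (shDRG2) given interferon-gamma (IFN-γ, 5 ng/ml for 24 hours), shDRG2 cells without IFN-γ, cells with the empty hairpin vector (pLKO) given the same IFN-γ, and pLKO cells without it. All 4 groups carry a hairpin vector. Whether the replicates came from separate cultures is not stated, so p-values measure the spread between these libraries, which may be technical, and the sources used here do not give the hairpin sequence or the number of clones. The study's title asks about DRG2, a GTP-binding protein, and the surface localisation of the checkpoint ligand PD-L1.

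A Rab is loaded with GTP by an exchange factor, recruits effectors such as tethers and motor adaptors to its membrane, and is switched off by a GTPase-activating protein. Rab1, Rab2 and Rab6 serve the endoplasmic reticulum and Golgi, Rab5 and Rab21 the early endosome, Rab4 and Rab11 recycling to the cell surface, Rab7 and Rab9 the late endosome, and Rab3, Rab8 and Rab10 exocytosis. Messenger RNA levels do not report the amount or the nucleotide state of the proteins.

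Library totals ran from 25422758 to 36654519 counts, and Rab members made up 0.323% to 0.386% of them. Drg2 had 6.46 and 7.66 CPM (counts scaled to TMM-adjusted library size, the unit of all levels given here) in shDRG2 cells with IFN-γ, against 72.3 and 64.3 CPM in pLKO cells with IFN-γ. Without IFN-γ it had 8.68 and 9.34 CPM in shDRG2 cells, against 76.3 and 68.6 CPM in pLKO cells. Of the 7 melanocyte markers all were expressed, with summed levels from 9621 to 14944 CPM. The 6 immune markers summed to at most 0.187 CPM, and 4 of them had no counts in any library. Endothelial markers summed to at most 0.622 CPM and epithelial markers to at most 0.688 CPM.

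Rab7, the late endosome and lysosome Rab, had the highest transcript level per kilobase of exon in every group, and Rab5c, an early endosome Rab, the next highest mean. Rab7 averaged 325 ± 3.06 CPM per kilobase in shDRG2 cells with IFN-γ, 266 ± 12.02 in shDRG2 cells without it, 302 ± 6.97 in pLKO cells with IFN-γ and 254 ± 5.92 in pLKO cells without it (SD, n = 2 each). In pLKO cells without IFN-γ, Rab5c (97.8 ± 1.98 CPM per kilobase) and Rab1 (96.4 ± 3.29) differed by less than their spread, as did Rab14 (75.0 ± 4.54) and Rab2a (72.9 ± 1.96). Rab6a and Rab24 followed at 51.9 ± 0.811 and 48.1 ± 3.93 CPM per kilobase. In that group 7 members had a mean of at least 100 CPM, 27 had between 10 and 100 CPM, 6 had between 1 and 10 CPM, 11 were detected below 1 CPM and 5 had no counts. The 10 members that did not pass the filter were Rab3c, Rab7b, Rab25, Rab26, Rab27b, Rab33a, Rab39, Rab40b, Rab42 and Rab44, and no count was assigned to Rab39, Rab40b or Rab42 in any library. Since reads of near-identical genes can be split between them, it matters that the deposited values of Rab11b were fractions in 8 libraries, those of Rab5b in 7 and those of Rab4b in 4. In GENCODE, Rab4b also shares 85.2% of its exon bases with Gm21983 and Rab43 shares 77.3% with Gm45140, both on the same strand. On the other strand, Prelid1 overlaps 66.4% of the exon bases of Rab24 and Gm43766 overlaps 70.9% of those of Rab2b, and strandedness of the libraries is not stated. The levels of these 6 genes are therefore uncertain.

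**Figure D1:**
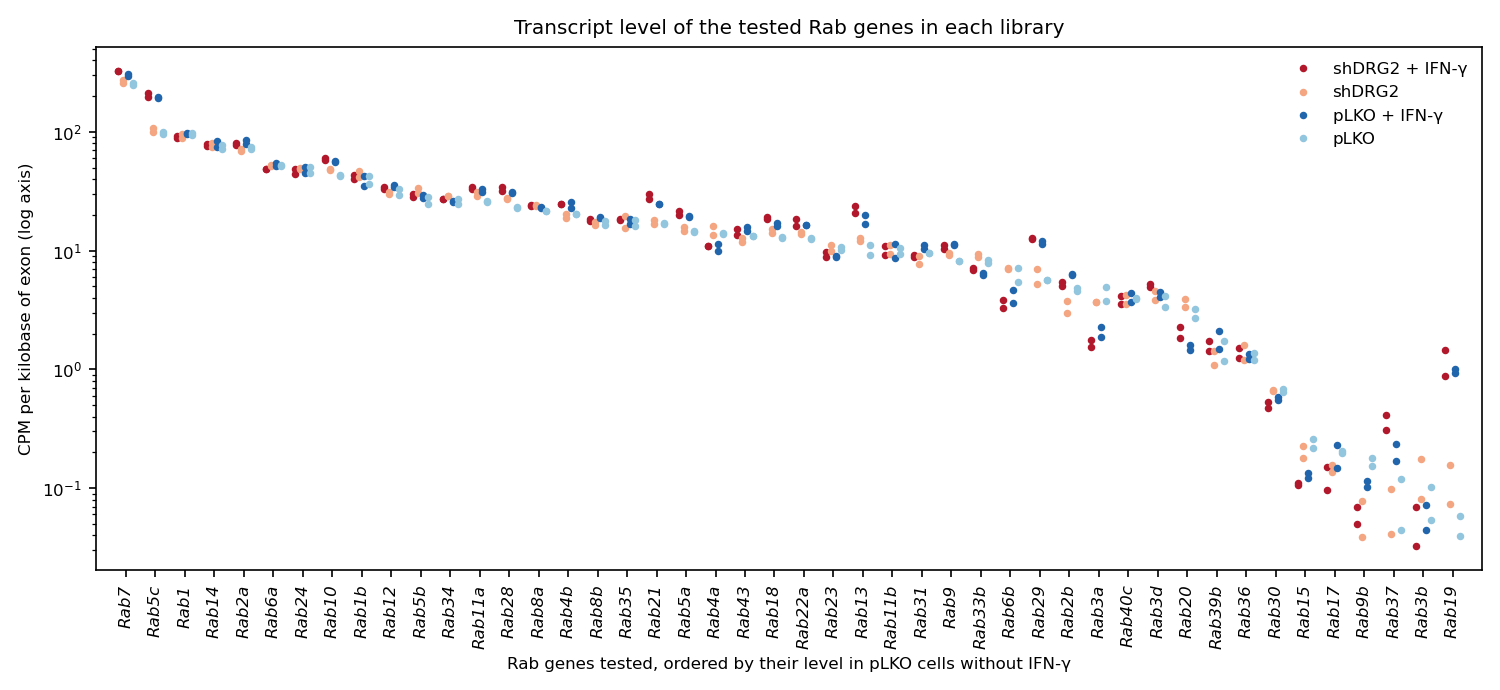
Level of the 46 tested Rab genes in each of the 8 libraries, in CPM per kilobase of exon on a log axis, ordered by the mean in pLKO cells without IFN-γ. Rab7 stands highest in every library, and Rab5c separates by IFN-γ in both lines.

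Knockdown of Drg2 left no Rab member past the threshold, an adjusted p of at most 0.05 in edgeR's quasi-likelihood test with Benjamini-Hochberg adjustment over all 13500 genes. With IFN-γ, 0 of 46 members passed in shDRG2 against pLKO cells, where 1.67% of all genes tested did. Without IFN-γ, 0 of 46 passed, where 1.2% of all genes did. At an unadjusted p under 0.05 there were 3 members with IFN-γ (Rab18, Rab21 and Rab31), where 1616 of all 13500 genes tested were. Without it there were 8 (Rab2b, Rab5b, Rab8a, Rab9b, Rab10, Rab11a, Rab18 and Rab28), where 1723 of 13500 were. DESeq2 also called 0 in either comparison. Without IFN-γ, Rab2b passed in edgeR when no filter on low counts was applied (adjusted p = 0.0299). It also passed when the replicate number was added to the model (adjusted p = 0.0291). Among the 39 members with a mean of at least 5 CPM, log2 fold changes ran between -0.32 (Rab3a) and 0.27 (Rab13) with IFN-γ, and between -0.47 (Rab2b) and 0.29 (Rab5b) without it. The 95% interval of the log2 fold change lay between -1 and 1 for all 39 in both comparisons. Medians over the 46 members were 0.03 with IFN-γ and 0.06 without it, beside 0.003 and 0.007 over all genes tested.

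Summed over the family, shDRG2 and pLKO cells differed by little. The sum was 3908 ± 91.4 CPM in shDRG2 cells and 3814 ± 2.34 CPM in pLKO cells with IFN-γ, a ratio of 1.02. Without IFN-γ it was 3379 ± 100.4 CPM in shDRG2 cells and 3229 ± 16.1 CPM in pLKO cells, a ratio of 1.05 (SD, n = 2 each). The largest member, Rab7, had 855 and 843 CPM in shDRG2 cells with IFN-γ, against 802 and 776 CPM in pLKO cells with IFN-γ, and its log2 fold change of 0.11 had a 95% interval between -0.06 and 0.27 (adjusted p = 0.679). Rab11a, the Rab of the slow recycling route, had 72.7 and 67.5 CPM in shDRG2 cells without IFN-γ, against 61.0 and 59.6 CPM in pLKO cells without it. Those values do not overlap, but the log2 fold change of 0.22 ± 0.0762 (SE) did not pass (edgeR, adjusted p = 0.24). With IFN-γ the same gene differed by 0.06 on the log2 scale, with a 95% interval between -0.11 and 0.23.

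**Figure D2:**
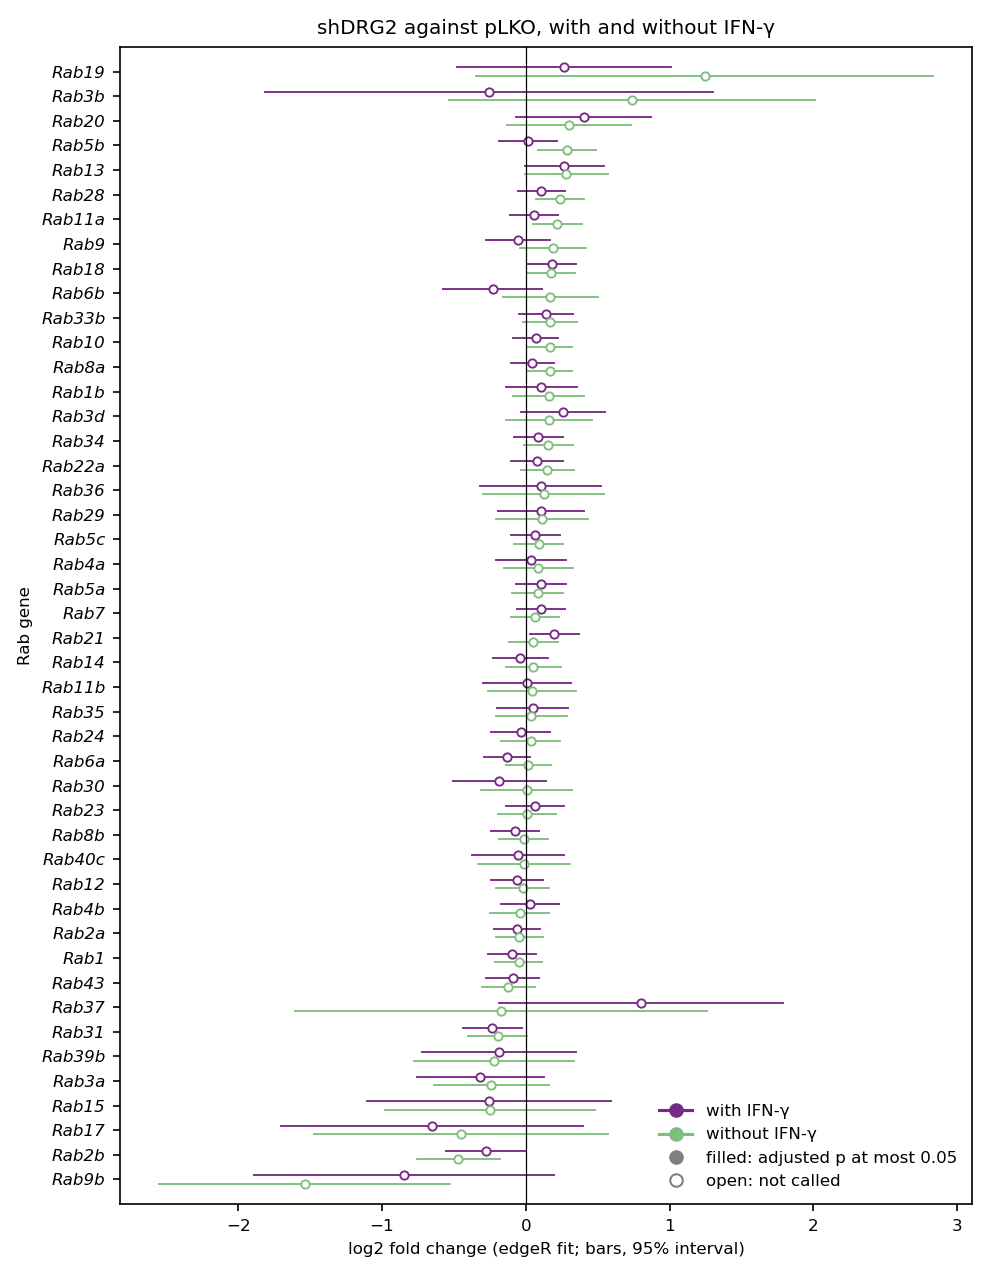
Log2 fold change of shDRG2 against pLKO cells with its 95% interval for the 46 tested Rab genes, with IFN-γ (upper symbol) and without it (lower symbol). All symbols are open, since 0 of 46 genes passed the threshold in either comparison.

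The member nearest to the threshold was Rab2b, a Rab of the endoplasmic reticulum and Golgi. Rab2b had 11.0 and 8.60 CPM in shDRG2 cells without IFN-γ, against 14.0 and 13.3 CPM in pLKO cells without it, and the groups do not overlap. Its log2 fold change was -0.47 ± 0.13 (SE, adjusted p = 0.133), and it passed when no filter on low counts was applied (adjusted p = 0.0299). With IFN-γ it had 15.8 and 14.6 CPM in shDRG2 cells, against 18.7 and 18.2 CPM in pLKO cells, a log2 fold change of -0.28 ± 0.125 (adjusted p = 0.42). Rab2b lies at chr14:52261759-52279545 (minus strand, GRCm38). The 436 tested genes of chromosome 14 had a median log2 fold change of -0.27 with IFN-γ and -0.28 without it, where genes of the other chromosomes had 0.01 in both comparisons. The part of that chromosome-wide difference in the Rab2b values was not tested. Gm43766 overlaps it on the other strand. Reads from the shared bases can be told apart only if the libraries were stranded, which is not stated.

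IFN-γ moved 19 of the 46 tested members in each line. In shDRG2 cells 14 were higher and 5 lower, where 16.2% of all genes tested were higher and 15.2% lower, 31.4% in all. In pLKO cells 14 were higher and 5 lower, where 15.4% of all genes were higher and 12.7% lower, 28.1% in all. Among members of at least 5 CPM, 16 of 39 passed in shDRG2 cells, where 34.8% of the 10038 genes at that level did. In pLKO cells 17 of 39 passed, where 31.4% did. Rab members were thus called about as often as well expressed genes in general, or somewhat more often, and that difference was not tested. By direction, 30.4% of the 46 members were higher and 10.9% lower in each line, to be set beside the shares of all genes tested given above. That lean toward higher calls was not tested either, and shares by direction were not computed for genes of at least 5 CPM. The median log2 fold change over the 46 members was 0.08 in shDRG2 cells and 0.13 in pLKO cells, beside 0.003 and 0.006 over all genes.

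The 12 members higher in both lines were Rab2b, Rab5a, Rab5c, Rab7, Rab10, Rab13, Rab18, Rab19, Rab21, Rab22a, Rab28 and Rab29, and the 5 lower in both were Rab3a, Rab4a, Rab6b, Rab20 and Rab33b. Rab4b and Rab37 passed in shDRG2 cells and Rab9 and Rab11a in pLKO cells. None of the 4 is shown to differ between the lines. The difference between the IFN-γ responses of the lines was called for 0 of 46 members (edgeR, unadjusted p under 0.05 for 0; DESeq2, 0 called), where 0.00741% of all genes passed. Of all 13500 genes, 321 had an unadjusted p under 0.05 for that difference. Among the 39 members of at least 5 CPM that difference ran between -0.40 (Rab6b) and 0.19 (Rab2b) on the log2 scale, with every 95% interval between -1 and 1. The comparisons within a line share libraries with the comparisons between lines. Other values moved with IFN-γ too. Fibroblast markers summed to between 4.16 and 5.74 CPM with it and between 15.8 and 19.5 CPM without it. Most of that was Col1a2, with 3.26 to 4.82 CPM with IFN-γ and 14.7 to 18.9 CPM without it. Each other fibroblast marker stayed below 1 CPM in every library. Of 7 melanocyte markers, 6 passed as lower in shDRG2 cells and 4 in pLKO cells, where 7 and 6 had negative log2 fold changes. Mitochondrially encoded genes took 3.79% to 4.42% of counts with IFN-γ and 4.44% to 5.29% without it. The part of these shifts in the Rab values was not tested, and in bulk RNA fewer cells of a type and less RNA per cell cannot be told apart.

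**Figure D3:**
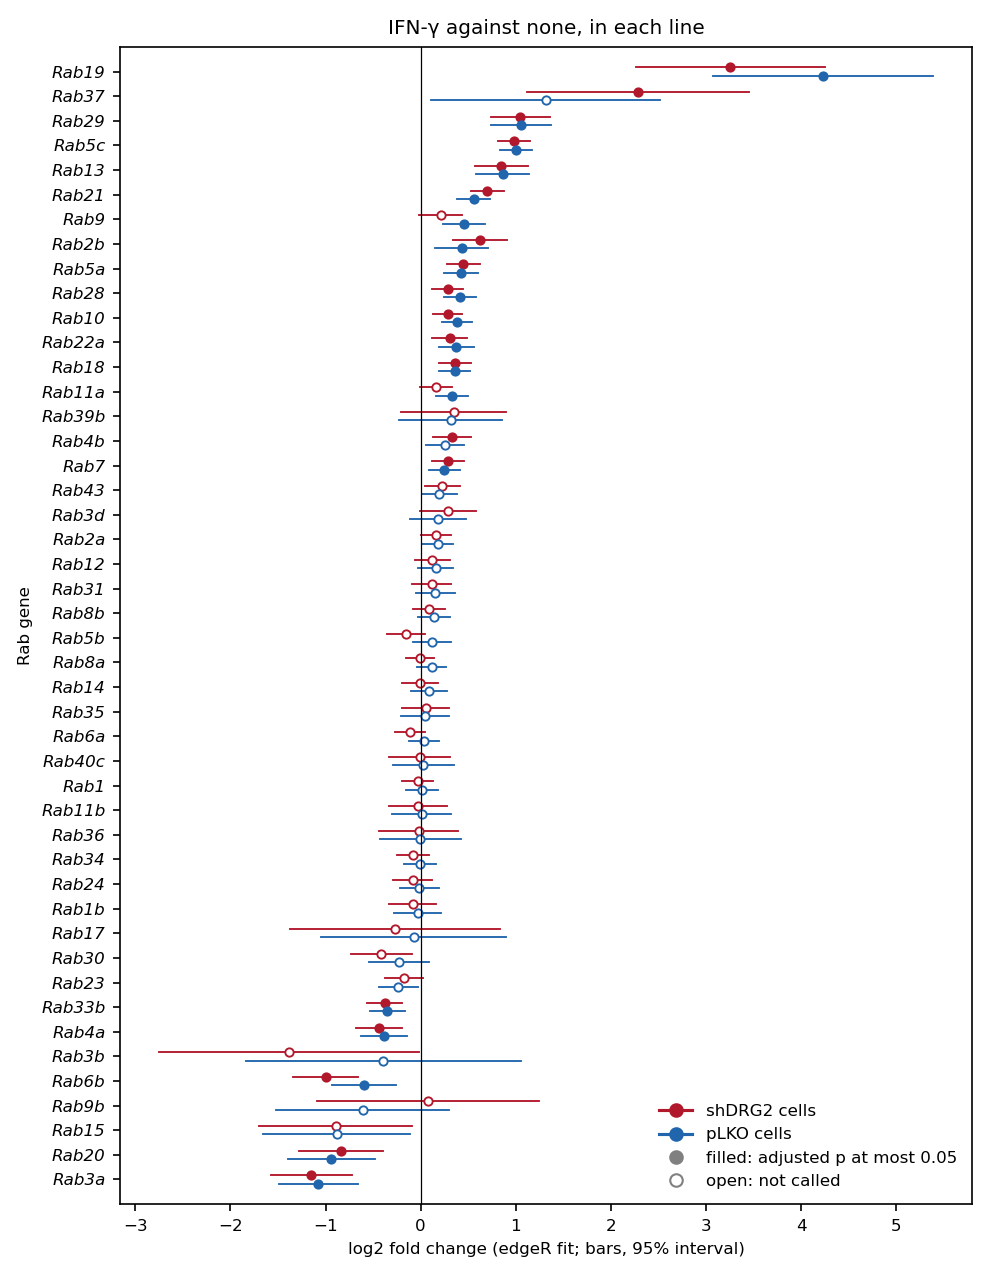
Log2 fold change of IFN-γ against none with its 95% interval for the 46 tested Rab genes, in shDRG2 cells (upper symbol) and pLKO cells (lower symbol). Filled symbols passed the threshold, 19 in each line, and for 17 genes both symbols are filled.

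Promoter sequence was compared with these calls, since promoters of interferon-induced genes often hold gamma-activated sites, with the core TTCNNNGAA, or interferon-stimulated response elements, with the core GAAANNGAA. Windows of 250 bases before each RefSeq start (GRCm38.p6) were found for 46 of the 56 members and searched on both strands. TTCNNNGAA was present in 7.02% and GAAANNGAA in 7.13% of all 32851 windows of that length. Counted by gene, the shares were 8.13% and 8.18% of 27025 genes. The member counts below are by gene and take either motif. The share of all genes that hold either was not computed. Of the 16 members higher with IFN-γ in at least 1 line, 14 had a window and 2 held a match (Rab19 and Rab11a). Of the 5 lower members, 4 had a window and 1 held a match (Rab20), and of the 25 tested members that were not called, 22 had a window and 2 held a match (Rab15 and Rab34). By single motif, TTCNNNGAA was held by 2 of the 14 higher, 0 of the 4 lower and 2 of the 22 uncalled members. GAAANNGAA was held by 1, 1 and 0 of them. These counts are too small to compare with the shares over all genes. The windows of Rab19, Rab11a and Rab20 follow without the bases that GENCODE counts to the gene, with the match in capitals. They stand beside that of Rab5c, which rose strongly and whose window held neither motif. They are chr6:39381103-39381174 on the plus strand for Rab19, chr9:64737759-64738006 for Rab11a, chr8:11478711-11478890 for Rab20 and chr11:100738216-100738465 for Rab5c, all 3 on the minus strand.
Rab19: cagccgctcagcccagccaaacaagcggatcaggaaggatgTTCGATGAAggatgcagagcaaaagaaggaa
Rab11a: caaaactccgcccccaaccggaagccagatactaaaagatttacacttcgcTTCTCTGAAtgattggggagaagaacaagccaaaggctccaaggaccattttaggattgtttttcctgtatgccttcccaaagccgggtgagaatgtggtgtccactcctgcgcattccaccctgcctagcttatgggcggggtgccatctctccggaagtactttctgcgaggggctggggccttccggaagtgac
Rab20: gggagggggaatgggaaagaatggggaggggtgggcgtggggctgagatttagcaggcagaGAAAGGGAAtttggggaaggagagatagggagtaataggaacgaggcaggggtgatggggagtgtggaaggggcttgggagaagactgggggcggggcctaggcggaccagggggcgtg
Rab5c: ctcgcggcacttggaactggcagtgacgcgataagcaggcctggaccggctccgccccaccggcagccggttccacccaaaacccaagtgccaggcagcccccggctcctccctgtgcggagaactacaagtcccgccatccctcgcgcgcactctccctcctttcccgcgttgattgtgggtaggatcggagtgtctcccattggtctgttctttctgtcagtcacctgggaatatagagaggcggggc
The match lies 201 to 209 bases before the RefSeq start in Rab19, 191 to 199 in Rab11a and 181 to 189 in Rab20. Rab19 holds a further match to the response element core on its minus strand, TTCCCTTTC, 1 to 9 bases before the RefSeq start, in a stretch that GENCODE counts to the gene. A match is a description of the letters and does not show binding, and a window without a match says nothing of sites elsewhere.

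Among the early and recycling endosome Rabs, 7 of 14 tested members passed in each line, 5 higher and 2 lower, where 31.4% of all genes passed in shDRG2 cells and 28.1% in pLKO cells. Those shares are also the background of the counts for the other roles. Their summed level was 1331 ± 69.4 CPM with IFN-γ against 1042 ± 38.0 CPM without it in shDRG2 cells, a ratio of 1.28, and 1289 ± 2.34 CPM against 977 ± 5.32 CPM in pLKO cells, a ratio of 1.32 (SD, n = 2 each). Rab5c (chr11:100715009-100738215, minus strand), a Rab of endosome fusion, gave most of that. Rab5c had 418 and 389 CPM with IFN-γ against 212 and 197 CPM without it in shDRG2 cells, and 388 and 383 CPM against 195 and 189.7 CPM in pLKO cells. All 4 libraries with IFN-γ lie well above all 4 without it. Rab5c rose by 0.98 ± 0.0766 on the log2 scale in shDRG2 cells (SE, adjusted p = 5.03e-06) and by 1.00 ± 0.0767 in pLKO cells (adjusted p = 4.93e-06), and the difference of -0.02 between the lines had a 95% interval between -0.26 and 0.22. It took 10.04% to 10.5% of the summed Rab CPM with IFN-γ and 5.90% to 6.16% without it.

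Of the other Rab5 genes, Rab5a rose less and Rab5b did not pass. Rab5a (chr17:53479234-53507680, plus strand) had 51.2 and 47.2 CPM with IFN-γ against 37.2 and 34.9 CPM without it in shDRG2 cells, and 45.4 and 46.1 CPM against 33.7 and 34.4 CPM in pLKO cells. The groups do not overlap, and the log2 fold change of Rab5a was 0.45 ± 0.0794 in shDRG2 cells (SE, adjusted p = 0.00163) and 0.43 ± 0.0796 in pLKO cells (adjusted p = 0.00265). Rab5b had log2 fold changes of -0.15 (adjusted p = 0.229) in shDRG2 cells and 0.12 (adjusted p = 0.376) in pLKO cells. Rab21 (chr10:115287084-115315594, minus strand), an endosomal Rab of integrin traffic, had 150.0 and 137 CPM with IFN-γ against 91.4 and 85.3 CPM without it in shDRG2 cells, and 125 and 125 CPM against 85.9 and 84.4 CPM in pLKO cells. Every library with IFN-γ was higher than every library without it. Rab21 rose by 0.70 ± 0.0766 on the log2 scale in shDRG2 cells (SE, adjusted p = 6.35e-05) and by 0.56 ± 0.0766 in pLKO cells (adjusted p = 0.000373).

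The recycling Rabs went in different directions. Rab4a (chr8:123805985-123835287, plus strand), a Rab of the fast recycling route, had 19.1 and 19.4 CPM with IFN-γ against 28.1 and 24.0 CPM without it in shDRG2 cells, and 20.2 and 17.4 CPM against 24.8 and 24.2 CPM in pLKO cells. Its groups do not overlap in either line, and it fell by 0.44 ± 0.108 on the log2 scale in shDRG2 cells (SE, adjusted p = 0.0114) and by 0.39 ± 0.109 in pLKO cells (adjusted p = 0.0234). The call ended in shDRG2 cells without shDRG2 + IFN-γ replicate 1 or 2 or shDRG2 replicate 1 (adjusted p between 0.0529 and 0.0992), and in pLKO cells without pLKO + IFN-γ replicate 2 or pLKO replicate 1 or 2 (adjusted p between 0.0767 and 0.175). Its sister Rab4b passed upward in shDRG2 cells (log2 fold change 0.33, adjusted p = 0.0195), a call that ended without shDRG2 + IFN-γ replicate 1 or 2 or shDRG2 replicate 2 (adjusted p up to 0.0957), and had 0.26 (adjusted p = 0.0604) in pLKO cells. Rab11a had log2 fold changes of 0.17 (adjusted p = 0.126) in shDRG2 cells and 0.33 (adjusted p = 0.00934) in pLKO cells, where the call ended without pLKO + IFN-γ replicate 2 or pLKO replicate 2 (adjusted p up to 0.0719). Rab22a, which links early to recycling endosomes, rose by 0.31 (adjusted p = 0.017) in shDRG2 cells and by 0.38 (adjusted p = 0.00665) in pLKO cells, and the call in shDRG2 cells ended without shDRG2 + IFN-γ replicate 1 or shDRG2 replicate 1 or 2 (adjusted p up to 0.164). Rab14, Rab11b, Rab35, Rab31 and Rab17 did not pass in either line.

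Rab20, which sits on endosomes and phagosomes and is known as induced by IFN-γ in mouse macrophages, was lower with IFN-γ in these melanoma cells. Rab20 (chr8:11453518-11478710, minus strand) had 3.16 and 2.54 CPM with IFN-γ against 4.70 and 5.50 CPM without it in shDRG2 cells, and 2.04 and 2.25 CPM against 4.46 and 3.78 CPM in pLKO cells. All 4 libraries with IFN-γ were lower than all 4 without it. Rab20 fell by 0.84 ± 0.199 on the log2 scale in shDRG2 cells (SE, adjusted p = 0.00905) and by 0.94 ± 0.207 in pLKO cells (adjusted p = 0.00696). Those calls ended without shDRG2 + IFN-γ replicate 2 or shDRG2 replicate 2 in shDRG2 cells (adjusted p up to 0.0768) and without pLKO replicate 1 in pLKO cells (adjusted p = 0.0534). In GENCODE 25.6% of its exon bases lie under E230013L22Rik on the other strand.

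**Figure D4:**
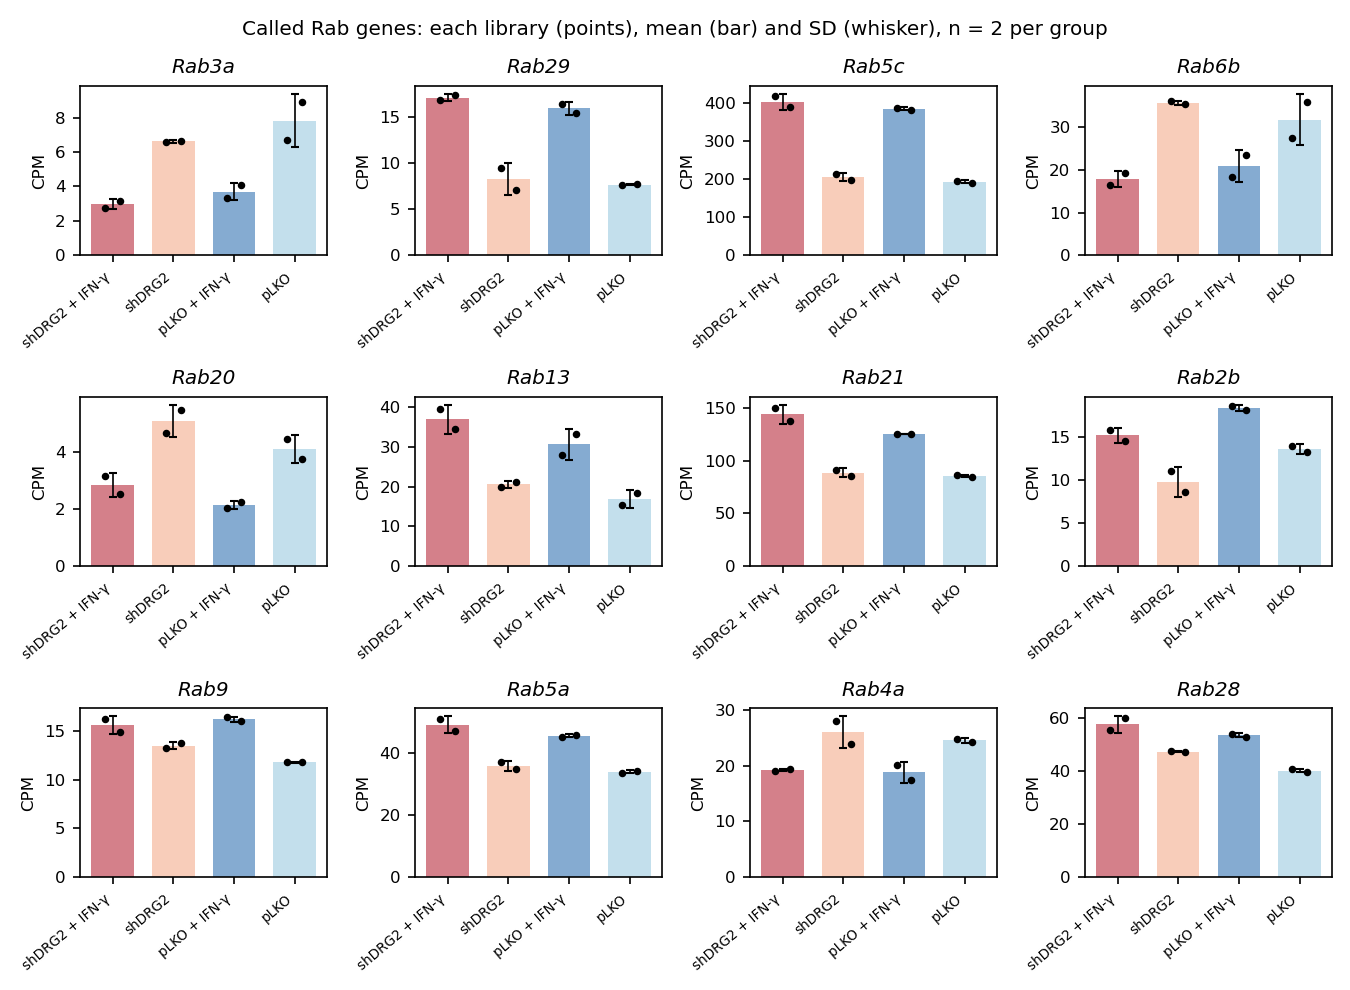
CPM of 12 Rab genes called in at least 1 comparison, in each library (points), with the group mean (bar, from 0) and SD (whisker), n = 2 per group. Rab5c, Rab29, Rab13 and Rab21 are higher in all 4 libraries with IFN-γ than in all 4 without it, and Rab3a, Rab20 and Rab6b are lower in all 4.

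Of the late endosome, lysosome and autophagy Rabs, Rab7 and Rab29 passed in shDRG2 cells and Rab7, Rab9 and Rab29 in pLKO cells, of 5 tested. Rab29 (chr1:131867224-131872887, plus strand), a Rab of the Golgi and stressed lysosomes that recruits the kinase LRRK2, had 16.8 and 17.4 CPM with IFN-γ against 9.45 and 7.01 CPM without it in shDRG2 cells, and 16.4 and 15.4 CPM against 7.61 and 7.70 CPM in pLKO cells. Levels with IFN-γ were about double in both lines, with no overlap. Rab29 rose by 1.05 ± 0.139 on the log2 scale in shDRG2 cells (SE, adjusted p = 0.000254) and by 1.06 ± 0.14 in pLKO cells (adjusted p = 0.00029). Rab7 had 855 and 843 CPM with IFN-γ against 717 and 673 CPM without it in shDRG2 cells, and 802 and 776 CPM against 675 and 653 CPM in pLKO cells. It rose by 0.29 (adjusted p = 0.0138) in shDRG2 cells and by 0.25 (adjusted p = 0.0302) in pLKO cells on the log2 scale. Those calls were less stable: the one in shDRG2 cells ended without shDRG2 + IFN-γ replicate 1 or 2 or shDRG2 replicate 2 (adjusted p up to 0.0847), and the one in pLKO cells without any 1 of the 4 pLKO libraries or shDRG2 + IFN-γ replicate 1 (adjusted p up to 0.122).

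Rab9 (chrX:166457253-166479867, minus strand) returns mannose 6-phosphate receptors from late endosomes to the Golgi. Rab9 had 16.3 and 15.0 CPM with IFN-γ against 13.2 and 13.8 CPM without it in shDRG2 cells, and 16.4 and 16.02 CPM against 11.8 and 11.9 CPM in pLKO cells. The libraries with IFN-γ are higher in both lines. Its log2 fold change was 0.21 ± 0.101 in shDRG2 cells (SE, adjusted p = 0.145) and 0.46 ± 0.101 in pLKO cells (adjusted p = 0.00728), and the difference of -0.25 between the lines had a 95% interval between -0.56 and 0.07. Rab24 and Rab9b did not pass.

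Among the secretory and exocytic Rabs, 4 of 10 tested members passed in shDRG2 cells and 3 of 10 in pLKO cells. Rab3a (chr8:70754679-70758677, plus strand), best known from regulated exocytosis at synapses, had 2.77 and 3.17 CPM with IFN-γ against 6.56 and 6.67 CPM without it in shDRG2 cells, and 3.34 and 4.05 CPM against 6.72 and 8.91 CPM in pLKO cells. Its levels with IFN-γ were lower in all 4 libraries. Rab3a fell by 1.15 ± 0.192 on the log2 scale in shDRG2 cells (SE, adjusted p = 0.00112) and by 1.08 ± 0.187 in pLKO cells (adjusted p = 0.00172). Rab13 (chr3:90213695-90226385, plus strand), a Rab of cell junctions and vesicle delivery to the leading edge, went the other way. Rab13 had 39.4 and 34.4 CPM with IFN-γ against 19.9 and 21.2 CPM without it in shDRG2 cells, and 27.9 and 33.3 CPM against 15.2 and 18.5 CPM in pLKO cells. It rose by 0.85 ± 0.125 on the log2 scale in shDRG2 cells (SE, adjusted p = 0.000527) and by 0.86 ± 0.127 in pLKO cells (adjusted p = 0.000589).

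Rab10, which carries vesicles to the plasma membrane, rose by 0.28 (adjusted p = 0.0106) in shDRG2 cells, where the call ended without replicate 1 of either shDRG2 group (adjusted p up to 0.0888), and by 0.38 (adjusted p = 0.00225) in pLKO cells. Its close relatives Rab8a and Rab8b did not pass in either line. Rab37, a Rab of secretory granules, was near the detection limit, with 35 and 32 counts with IFN-γ against 9 and 3 counts without it in shDRG2 cells and 13 and 22 counts against 11 and 4 counts in pLKO cells. Scaled to depth, its summed counts were 4.86 times higher with IFN-γ in shDRG2 cells (95% counting interval 2.61 to 9.87; adjusted p = 0.00756) and 2.52 times higher in pLKO cells (1.34 to 4.98; adjusted p = 0.10). The call in shDRG2 cells ended without shDRG2 + IFN-γ replicate 1 or shDRG2 replicate 2 (adjusted p up to 0.0586).

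Of the 14 tested Rabs of the endoplasmic reticulum and Golgi, 5 passed in each line, 3 higher (Rab2b, Rab18 and Rab19) and 2 lower (Rab6b and Rab33b), and their summed level with IFN-γ was 1.01 times that without it in shDRG2 cells and 1.05 times in pLKO cells. Rab6b (chr9:103111787-103185276, plus strand), the Rab6 form found mainly in neurons, had 16.5 and 19.3 CPM with IFN-γ against 36.2 and 35.4 CPM without it in shDRG2 cells, and 18.3 and 23.6 CPM against 27.6 and 36.1 CPM in pLKO cells. The groups do not overlap in either line. Rab6b fell by 1.00 ± 0.152 on the log2 scale in shDRG2 cells (SE, adjusted p = 0.000617) and by 0.60 ± 0.151 in pLKO cells (adjusted p = 0.0137), where the call ended without pLKO + IFN-γ replicate 1 or pLKO replicate 2 (adjusted p up to 0.127). The difference of -0.40 between the lines had a 95% interval between -0.87 and 0.08. Rab6a, the widely expressed form of Golgi traffic, had log2 fold changes of -0.12 (adjusted p = 0.248) in shDRG2 cells and 0.03 (adjusted p = 0.798) in pLKO cells.

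Rab2b had 15.8 and 14.6 CPM with IFN-γ against 11.0 and 8.60 CPM without it in shDRG2 cells, and 18.7 and 18.2 CPM against 14.0 and 13.3 CPM in pLKO cells. The libraries with IFN-γ were higher within each line. Rab2b rose by 0.62 ± 0.129 on the log2 scale in shDRG2 cells (SE, adjusted p = 0.00422) and by 0.43 ± 0.125 in pLKO cells (adjusted p = 0.0267), a call that ended without any 1 of the 4 pLKO libraries (adjusted p up to 0.118). Rab18, which acts at contacts of the endoplasmic reticulum with lipid droplets, rose by 0.36 in both lines (adjusted p = 0.00419 in shDRG2 cells and 0.00552 in pLKO cells). Rab33b, a Golgi Rab that binds the autophagy protein ATG16L1, fell by 0.38 (adjusted p = 0.00622) in shDRG2 cells and by 0.35 (adjusted p = 0.0112) in pLKO cells, where the call ended without replicate 1 of either pLKO group (adjusted p up to 0.0784). Rab1, Rab1b, Rab2a and Rab43 did not pass in either line.

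Rab19, a Golgi Rab, showed the highest ratio from a very low level. It had 69 and 51 counts with IFN-γ against 8 and 3 counts without it in shDRG2 cells, and 43 and 48 counts against 3 and 2 counts in pLKO cells. The groups are far apart in both lines. Scaled to depth, the summed counts were 9.50 times higher with IFN-γ in shDRG2 cells (95% counting interval 5.12 to 19.5; adjusted p = 0.000307) and 19.7 times higher in pLKO cells (8.14 to 62.1; adjusted p = 0.00017). These intervals, like those of Rab37, are built on counts summed over the 2 libraries of a group, so they leave out the spread between libraries. No molecular identifiers are described, so repeated reads of 1 molecule cannot be told apart. Even with IFN-γ the gene reached a mean of only 1.17 CPM per kilobase in shDRG2 cells and 0.97 in pLKO cells.

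Of the remaining members, Rab28 (chr5:41624976-41708157, minus strand), a Rab of cilia and photoreceptors, rose in both lines and Rab23 and Rab40c did not pass. Rab28 had 55.6 and 60.0 CPM with IFN-γ against 47.7 and 47.3 CPM without it in shDRG2 cells, and 54.2 and 53.1 CPM against 40.8 and 39.8 CPM in pLKO cells. All libraries with IFN-γ were higher. Its log2 fold change was 0.28 ± 0.0745 in shDRG2 cells (SE, adjusted p = 0.015) and 0.41 ± 0.075 in pLKO cells (adjusted p = 0.00221). The call in shDRG2 cells ended without shDRG2 + IFN-γ replicate 2 or shDRG2 replicate 1 or 2 (adjusted p up to 0.106). Of the members below the filter, Rab7b had 0.0333 and 0 CPM with IFN-γ against 0.187 and 0.155 CPM without it in shDRG2 cells, and 0 and 0.0305 CPM against 0.122 and 0.407 CPM in pLKO cells.

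Levels of same-numbered Rab genes were compared as ratios of CPM per kilobase within a library, with no test. Rab4a stood to Rab4b at 0.437 and 0.451 with IFN-γ against 0.787 and 0.719 without it in shDRG2 cells, and at 0.447 and 0.437 against 0.698 and 0.682 in pLKO cells. Rab5b stood to Rab5c at 0.141 and 0.142 against 0.313 and 0.307 in shDRG2 cells, and at 0.142 and 0.152 against 0.248 and 0.294 in pLKO cells. For Rab6a and Rab6b the ratio was 14.8 and 12.6 against 7.22 and 7.53 in shDRG2 cells, and 14.1 and 11.7 against 9.37 and 7.31 in pLKO cells. In these 3 pairs the ratios with and without IFN-γ do not overlap in either line. Other pairs of at least 5 CPM that did the same were Rab2a and Rab2b, Rab3a and Rab3d, Rab5a and Rab5b, Rab5a and Rab5c, and Rab11a and Rab11b. Each pair that separated holds a member called with IFN-γ, and the Rab5 pairs share members. The separations are therefore not independent of those calls or of each other. How often other pairs of genes separate in this way was not computed. For Rab8a and Rab8b the ratios overlap in pLKO cells only. For Rab1 and Rab1b the ratios overlap in both lines. Rab4b, Rab5b and Rab11b are among the members with fractional counts, so ratios that hold them are less certain.

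**Figure D5:**
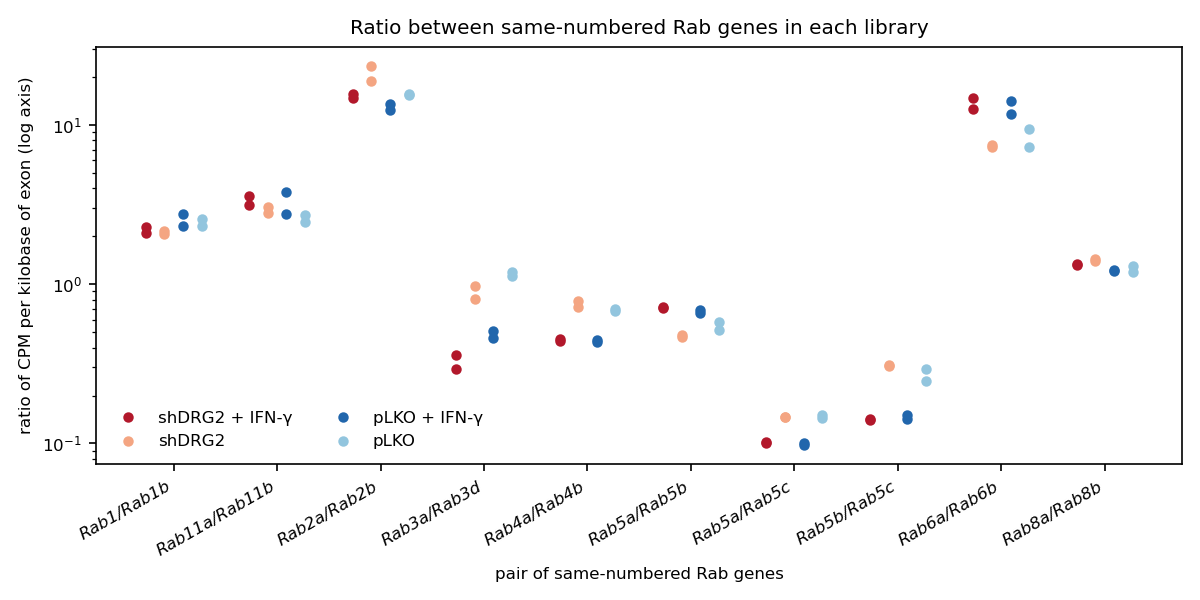
Ratio of CPM per kilobase of exon between same-numbered Rab genes of at least 5 CPM, in each library, on a log axis. All pairs except Rab1 to Rab1b and Rab8a to Rab8b separate libraries with IFN-γ from those without it in both lines. Each of the separating pairs holds a member called with IFN-γ, and how often other pairs of genes separate was not computed.

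The proteins that load, switch off and read Rabs changed in both directions with IFN-γ. Of 40 tested effectors, 10 rose and 9 fell in each line, 47.5% of the list, where 31.4% of all genes passed in shDRG2 cells and 28.1% in pLKO cells. Rab11fip4, an adaptor of Rab11, had 15.3 and 18.1 CPM with IFN-γ against 56.5 and 57.5 CPM without it in shDRG2 cells, and 16.8 and 18.3 CPM against 48.0 and 56.5 CPM in pLKO cells. It fell by 1.77 ± 0.112 on the log2 scale in shDRG2 cells (SE, adjusted p = 9.35e-07) and by 1.57 ± 0.112 in pLKO cells (adjusted p = 2.69e-06). Plekhm1, a Rab7 effector in lysosome fusion, rose by 1.03 (adjusted p = 9.91e-05) in shDRG2 cells and by 0.97 (adjusted p = 0.000186) in pLKO cells. Osbpl1a, the Rab7-binding cholesterol sensor ORP1L, averaged 116 ± 4.73 CPM with IFN-γ and 56.5 ± 3.48 CPM without it in pLKO cells (SD, n = 2 each; log2 fold change 1.03, adjusted p = 4.95e-06). In shDRG2 cells Osbpl1a averaged 126 ± 2.19 CPM with IFN-γ and 62.4 ± 2.98 CPM without it. Mlph, which links melanosomes to myosin Va, averaged 387 ± 8.72 CPM with IFN-γ and 888 ± 89.6 CPM without it in shDRG2 cells (log2 fold change -1.20, adjusted p = 7.28e-06). In pLKO cells Mlph averaged 411 ± 39.9 CPM with IFN-γ and 773 ± 37.6 CPM without it (log2 fold change -0.91, adjusted p = 6.70e-05).

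Lrrk2, the kinase that Rab29 recruits and that phosphorylates Rab8 and Rab10, was the single effector that passed in the knockdown comparisons. There 1 of 40 passed in each, beside 1.67% of all genes with IFN-γ and 1.2% without it. An unadjusted p under 0.05 in edgeR was found for 6 of the 40 effectors with IFN-γ and 11 without it. Of all 13500 genes, 1616 and 1723 had such a p, and the difference from the effectors was not tested. Lrrk2 had 14.5 and 13.9 CPM in shDRG2 cells with IFN-γ, against 23.1 and 22.0 CPM in pLKO cells with IFN-γ. Without IFN-γ it had 5.94 and 5.50 CPM in shDRG2 cells, against 8.16 and 9.45 CPM in pLKO cells. It was lower in all 4 shDRG2 libraries than in the pLKO libraries of the same treatment. The log2 fold change was -0.67 ± 0.111 with IFN-γ (SE, adjusted p = 0.0167) and -0.62 ± 0.123 without it (adjusted p = 0.0452). The call with IFN-γ ended without any 1 of the 4 libraries compared (adjusted p up to 0.125), and the one without IFN-γ ended without any 1 of the 8 libraries (adjusted p up to 0.228), with log2 fold changes staying between -0.73 and -0.51. Against a 1.2-fold minimum neither passed (adjusted p = 0.0737 with IFN-γ and 0.213 without it), and with scaling to library size alone the one without IFN-γ had an adjusted p of 0.0503. With IFN-γ against none, Lrrk2 rose by 1.31 (adjusted p = 1.77e-05) in shDRG2 cells and by 1.36 (adjusted p = 1.03e-05) in pLKO cells.

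Of 34 tested exchange factors, 8 rose and 8 fell with IFN-γ in shDRG2 cells and 7 rose and 6 fell in pLKO cells. That was 47.1% and 38.2% of the list, beside 31.4% and 28.1% of all genes. In the knockdown comparisons 0 passed in edgeR. An unadjusted p under 0.05 was found for 3 with IFN-γ and 4 without it, beside 1616 and 1723 of all 13500 genes. Dennd2c, a DENN-domain exchange factor, fell by 1.01 (adjusted p = 0.000449) in shDRG2 cells and by 0.84 (adjusted p = 0.0017) in pLKO cells. Rin2, an exchange factor of Rab5, fell by 0.70 (adjusted p = 0.000743) in shDRG2 cells and by 0.74 (adjusted p = 0.0005) in pLKO cells. Dennd5b fell by 0.86 (adjusted p = 5.49e-05) in shDRG2 cells and by 0.67 (adjusted p = 0.000385) in pLKO cells. Als2cl rose by 0.65 (adjusted p = 0.0343) in shDRG2 cells and by 0.84 (adjusted p = 0.0143) in pLKO cells. Its call ended in shDRG2 cells without shDRG2 + IFN-γ replicate 2 or shDRG2 replicate 1 and in pLKO cells without pLKO + IFN-γ replicate 2 or pLKO replicate 1, where adjusted p reached 0.236 and 0.116. In shDRG2 cells it also ended under upper-quartile scaling (adjusted p = 0.055), scaling to library size alone (0.0635) and a test against a 1.2-fold minimum (0.103).

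Of 36 tested GTPase-activating proteins, 3 rose and 5 fell with IFN-γ in shDRG2 cells and 3 rose and 3 fell in pLKO cells, 22.2% and 16.7% of the list, beside 31.4% and 28.1% of all genes. Tbc1d16 averaged 36.1 ± 0.918 CPM with IFN-γ and 64.6 ± 2.51 CPM without it in shDRG2 cells, and 36.3 ± 0.874 CPM and 61.9 ± 2.30 CPM in pLKO cells (SD, n = 2 each). Tbc1d16 fell by 0.84 (adjusted p = 1.54e-05) in shDRG2 cells and by 0.77 (adjusted p = 3.48e-05) in pLKO cells. Tbc1d12 fell by 0.46 (adjusted p = 0.0113) in shDRG2 cells, a call that ended without shDRG2 + IFN-γ replicate 2 or shDRG2 replicate 1 (adjusted p up to 0.0833) and against a 1.2-fold minimum (0.087), and by 0.57 (adjusted p = 0.00393) in pLKO cells. Tbc1d23 rose by 0.45 (adjusted p = 0.00179) in shDRG2 cells and by 0.40 (adjusted p = 0.00405) in pLKO cells. In the knockdown comparisons 0 activating proteins passed in edgeR. An unadjusted p under 0.05 was found for 4 with IFN-γ and 5 without it, beside 1616 and 1723 of all 13500 genes. Of 8 tested factors that prenylate Rabs or recycle them from membranes, 0 passed with IFN-γ in shDRG2 cells and 2 rose in pLKO cells. That was 0% and 25% of the list, beside 31.4% and 28.1% of all genes. Of these factors, Rabif had a log2 fold change of 0.31 with IFN-γ in pLKO cells (adjusted p = 0.0322). The call ended without any 1 of the 4 pLKO libraries (adjusted p up to 0.174), under upper-quartile scaling (0.0688), library size alone (0.0833) and DESeq2 (0.091), and against a 1.2-fold minimum (0.438).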

How the data were processed

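RNA sequencing gave 8 libraries in 4 groups. The authors deposited expected counts per gene, made with STAR and Salmon 1.5.2 on mm10 per the submitters' processing notes, and 86.4% of nonzero entries are whole to within 0.0015. Their annotation and strand setting are not stated, and the labels' protocol names more than 1 sequencer and read length. Of 45583 entries, 27 with symbols turned into dates (0.204% to 0.212% of counts) were left out.

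Counts were rounded, filtered with filterByExpr (13500 genes kept), scaled by TMM (factors 0.973 to 1.04) and fitted with edgeR 4.0.16 in R 4.3.3. A quasi-likelihood model with 1 coefficient per group used all 8 libraries (4 residual degrees of freedom, common biological variation 8.49%). The 5 two-sided comparisons were adjusted by Benjamini-Hochberg over all 13500 genes at 0.05. Unless a sentence names another quantity, log2 fold changes and adjusted p-values are from this fit, and CPM uses TMM-adjusted totals. The procedure was tested on simulated data.

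Full statistics are given for the 12 called members with the largest log2 fold change among those of at least 1 CPM, and for up to 4 called regulators or effectors per list and comparison of at least 5 CPM. The members and lists were chosen with earlier results of these data known. Positions and exon lengths are from GENCODE M21 (GRCm38, the assembly of mm10), where Rab1 is listed as Rab1a, and promoters are from RefSeq. Alternatives were other scalings, DESeq2 1.42.0, no filter, a replicate block, a test against a 1.2-fold minimum, and leaving out each library. No batch is given in the labels. One regulator of the Rab lists is not reported here.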

Additional observations from a re-analysis of the deposited data

How the results depend on the processing

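No Rab call reversed under any of the 14 alternatives. In 6 of 19 IFN-γ calls in pLKO cells and 9 of 19 in shDRG2 cells, the call held under all of them. The Rab count for IFN-γ was 11 in shDRG2 cells and 7 in pLKO cells when tested against a minimum change of 1.2-fold, by construction a stricter question, and leaving out 1 library gave 13 to 19 and 14 to 20. For the knockdown without IFN-γ, 1 member (Rab2b, lower) passed without the low-count filter (adjusted p = 0.0299) and with the replicate block (adjusted p = 0.0291). Rab30 passed downward in shDRG2 cells under upper-quartile scaling (adjusted p = 0.0357) and scaling to library size alone (0.0464). Rab7b passed downward in pLKO cells without the filter (adjusted p = 0.0224). Scalings moved the median of all genes by less than 0.05 on the log2 scale.

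Over all genes, the knockdown with IFN-γ called 226, against 653 without the filter, 675 with the block, 83 against 1.2-fold, and 44 to 202 without 1 library. Without IFN-γ it called 162, against 678, 673, 65 and 27 to 167, and DESeq2 called 302. IFN-γ called 4233 in shDRG2 cells, against 2440 at the 1.2-fold minimum and 2720 to 4297 without 1 library, and 3796 in pLKO cells, against 2060 and 2482 to 3749. The difference between responses was called for 1 gene, against 58 without the filter, 2 with the block, 7 with DESeq2 and 1 to 2 without 1 library. Knockdown counts moved by over 1.5 times without any 1 of the 4 libraries compared, and without shDRG2 + IFN-γ replicate 2 for the one without IFN-γ. IFN-γ counts did so without shDRG2 + IFN-γ replicate 1 in shDRG2 cells, and without pLKO + IFN-γ replicate 2 or pLKO replicate 1 in pLKO cells. The cause of these shifts was not tested.

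Libraries of different groups share replicate numbers, but the labels do not tie them to a shared culture or day. Deviations of same-numbered libraries from their group means correlated at 0.107 to 0.274 over the 6 group pairs, and with the replicate block Rab43 also passed in both lines, Rab30 in shDRG2 cells (adjusted p = 0.0242) and Rab2a, Rab4b and Rab23 in pLKO cells. With the lone library left in a group, its spread is assumed to be that of the others. At 2 libraries per group and 0.06 to 1 CPM, changes of the sparsest members were not well resolved.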
